A study of Homo sapiens with 38 samples.

Results

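Exomeres of the human colorectal cancer line DiFi were compared between 2 isolation methods, in 7 of the 38 small RNA libraries of the series. FPLC exomere A to D are 4 libraries of exomeres taken by size-exclusion chromatography on an FPLC system, and 3D UC exomere A to C are 3 libraries of exomeres pelleted by ultracentrifugation (UC). The libraries were taken by the names of their columns, with no measured value used. Both groups came from the 3D culture, in which DiFi cells, labelled epithelial, grow in a hollow-fibre bioreactor, and the labels name no drug and no genetic change in either. For the UC preparations, medium passed a 0.22 µm filter, vesicles were spun down at 167000 g for 4 h, and exomeres were collected from what stayed above them by a further 16 h at the same force. The chromatography steps are not given in the sources used here. RNA of both groups was treated with AlkB demethylases before library preparation, so that methylated RNAs such as tRNA could be reverse transcribed. The medium was collected as 4 pools of about 400 mL, but no label ties a library to a pool and all material is from 1 cell line. Replicates may therefore differ for technical reasons only. The edgeR p-values below use a spread estimated over all 38 libraries, and with the 2 groups alone fewer features passed (146 higher and 88 lower, against 437 and 222).

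Library totals were 3558019 to 4656610 counts in FPLC exomere and 3380807 to 15344549 counts in 3D UC exomere, over 2134 to 6887 and 2513 to 5046 features with a count. At these totals the widest 95% Wilson interval of any class share in any of the 7 libraries spanned 0.0951 percentage points, so the spread between libraries, and not counting error, limited the shares below. These limits reflect counting alone, because without molecular identifiers amplified reads cannot be taken as separate molecules. 3D UC exomere B and C were deeper than any FPLC exomere library. Markers of the epithelial label were present. The 9 members of the miR-200 family, which marks epithelia, summed to 8829, 59086, 14173 and 15655 CPM in FPLC exomere A to D, against 2233, 1193 and 843 CPM in 3D UC exomere A to C. The 6 intestinal epithelial entries (miR-192, miR-194 and miR-215) summed to 6977, 56209.6, 13339 and 12664 CPM in FPLC exomere A to D, against 1866, 1214 and 794 CPM in 3D UC exomere A to C. Blood cell, endothelial and liver miRNAs, 15 entries, summed to 79.7, 702, 180.4 and 125 CPM in FPLC exomere A to D, against 38.7, 39.04 and 11.9 CPM in 3D UC exomere A to C. The 8 mesenchymal and muscle entries summed to 97.99, 49.3, 9.45 and 10.1 CPM in FPLC exomere A to D, against 1.77, 4.63 and 92.5 CPM in 3D UC exomere A to C. miR-451a, which defines red blood cells, was at 0 CPM in FPLC exomere A, C and D, and at most 8.25 CPM in any of the 7 libraries.

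Exomeres are small particles without a lipid membrane that cells release beside vesicles, and they carry RNA bound to protein. The table sorts that RNA into 10 classes. Y RNAs are short hairpin RNAs that bind the Ro60 protein and are known as an abundant RNA of the extracellular space. Vault RNAs, 7SL RNA and 7SK RNA, listed as miscellaneous RNA, belong to the vault particle, the signal recognition particle and a transcription elongation regulator. Small nuclear RNAs (snRNA) build the spliceosome, small nucleolar RNAs (snoRNA) guide the modification and cleavage of ribosomal RNA (rRNA), and miRNAs guide Argonaute proteins to messenger RNAs.

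Class shares are given first, since they set the level of everything else. Y RNA held 18.4, 21.2, 24.4 and 20.1% in FPLC exomere A to D, against 75.5, 83.9 and 66.4% in 3D UC exomere A to C. All 4 FPLC libraries lay below all 3 UC libraries, at a mean of 21.02% ± 2.55 in FPLC exomere and 75.3% ± 8.73 in 3D UC exomere (SD, n = 4 and 3). rRNA took 20.6, 14.7, 41.5 and 27.8% in FPLC exomere A to D, against 1.51, 1.47 and 2.65% in 3D UC exomere A to C. Every FPLC library was above every UC library, and the means were 26.2% ± 11.6 in FPLC exomere and 1.88% ± 0.665 in 3D UC exomere (SD, n = 4 and 3). Miscellaneous RNA took 15.04, 4.82, 2.44 and 7.49% in FPLC exomere A to D, against 0.245, 0.398 and 1.09% in 3D UC exomere A to C. snoRNA took 0.853, 2.46, 2.73 and 5.31% in FPLC exomere A to D, against 0.169, 0.0867 and 0.132% in 3D UC exomere A to C. lncRNA took 3.89, 2.05, 1.10 and 2.56% in FPLC exomere A to D, against 0.447, 0.392 and 0.474% in 3D UC exomere A to C. In these 3 classes, too, the groups did not overlap, with all FPLC libraries on the higher side. As shares of the counts outside Y RNA, rRNA and snoRNA still did not overlap, while miscellaneous RNA (9.28% ± 6.59 in FPLC exomere and 2.24% ± 1.14 in 3D UC exomere) and lncRNA (3.01% ± 1.38 in FPLC exomere and 1.89% ± 0.512 in 3D UC exomere; SD, n = 4 and 3) did. rRNA, miscellaneous RNA, snoRNA and lncRNA together came to a mean of 38.8% in FPLC exomere, against 3.02% in 3D UC exomere.

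The other 5 classes overlapped. miRNA took 10.8, 47.7, 19.5 and 23.2% in FPLC exomere A to D, against 12.7, 7.77 and 8.13% in 3D UC exomere A to C, with FPLC exomere B far above the rest. snRNA took 9.60, 4.85, 6.94 and 8.58% in FPLC exomere A to D, against 8.31, 4.79 and 14.9% in 3D UC exomere A to C. tRNA took 20.6, 1.40, 0.958 and 3.82% in FPLC exomere A to D, against 0.770, 0.948 and 5.94% in 3D UC exomere A to C, which places FPLC exomere A and 3D UC exomere C above the other 5 libraries. Mitochondrial tRNA took 0.0526, 0.0923, 0.0459 and 0.101% in FPLC exomere A to D, against 0.0827, 0.0659 and 0.0725% in 3D UC exomere A to C. Endogenous retrovirus RNA (ERV) took 0.225, 0.748, 0.380 and 1.04% in FPLC exomere A to D, against 0.227, 0.200 and 0.136% in 3D UC exomere A to C. With 4 against 3 libraries the smallest exact p is 0.0286, and no class passed after adjustment over the 10 classes (exact permutation test, two-sided, 35 assignments; adjusted p = 0.114 for the 5 classes whose groups do not overlap). Beside these stand the 3D UC sEV libraries, small vesicles pelleted from the same culture, at a mean of 20.4% ± 6.11 Y RNA, 19.2% ± 3.37 rRNA, 6.05% ± 2.32 miscellaneous RNA and 1.87% ± 0.430 snoRNA (SD, n = 3), given side by side with no test.

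**Figure D1:**
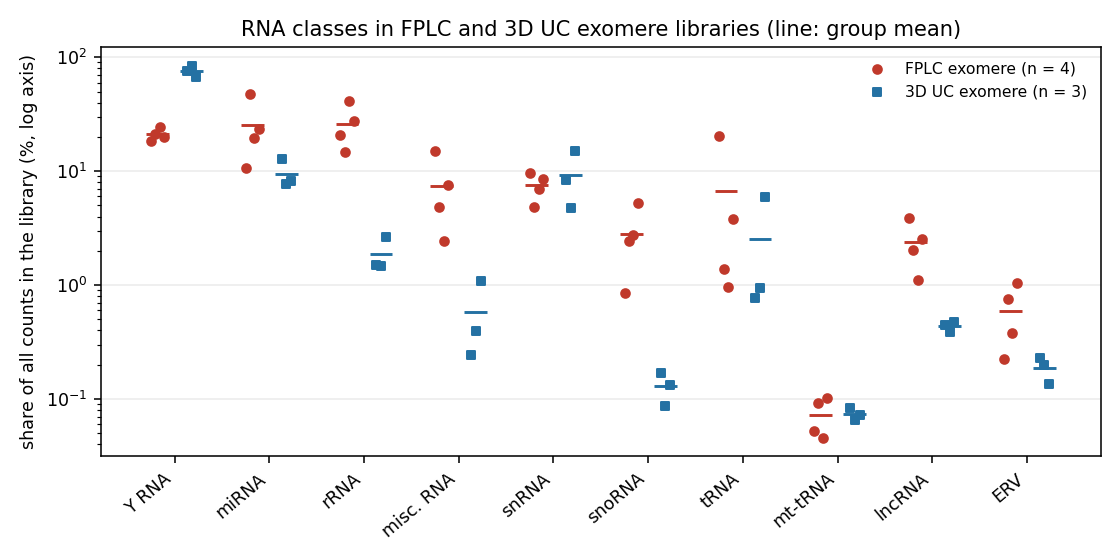
Share of all counts in each library held by each of the 10 RNA classes (y axis, percent, log axis), with FPLC exomere (circles, n = 4) left of 3D UC exomere (squares, n = 3) and a line at each group mean. Y RNA has a mean of 21.0% in FPLC exomere against 75.3% in 3D UC exomere, and the rRNA, miscellaneous RNA, snoRNA and lncRNA points of FPLC exomere all lie above those of 3D UC exomere.

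Single features were compared with edgeR, scaled between libraries by TMM, and a feature passed at an adjusted p below 0.05 over the 7009 features tested. Values are in CPM, the counts of a library scaled to a total of 1000000, and a log2 fold change is FPLC over 3D UC. Of the 7009 features 9.40% passed, 437 (6.23%) higher and 222 (3.17%) lower in FPLC exomere. The median log2 fold change of all 7009 was 0.67 with TMM, and 2.05 when libraries were scaled to their totals, so changes are read against that median. With library totals 1087 features (15.5%) passed higher and 86 (1.23%) lower. Without 3D UC exomere B the counts were 188 higher and 143 lower, and without 3D UC exomere C 124 higher and 173 lower. All 437 higher calls were among the 1087, and all 86 lower calls among the 222. Of the higher calls, 195 were at 0 in all 3 UC libraries, and of the lower calls 114 were at 0 in all 4 FPLC libraries. The CPM ranges of the groups did not overlap in 8.83% of the 7009 with FPLC exomere above and 1.41% with FPLC exomere below. To set aside the shift between classes, each feature was also tested as a share of its own class. There 9.69% passed, and 357 (5.09%) passed higher and 322 (4.59%) lower, with 237 higher without 3D UC exomere C and 206 lower without FPLC exomere A.

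The table holds 3 Y RNA genes by name, RNY1, RNY3 and RNY4. RNY1 and RNY4 lie together on chromosome 7 and are shown because they are the abundant ones of the 3. Their transcripts (GENCODE 29, GRCh38, 5′ to 3′) share the 11 bases in capitals at the 5′ end, part of the stem that closes the hairpin.
RNY1, chr7:148987136-148987248, - strand: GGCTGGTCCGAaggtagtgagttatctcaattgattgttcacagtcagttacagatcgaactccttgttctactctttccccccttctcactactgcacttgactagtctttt
RNY4, chr7:148963315-148963410, + strand: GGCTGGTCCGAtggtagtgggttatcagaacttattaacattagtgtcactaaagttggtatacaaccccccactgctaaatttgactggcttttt

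RNY1 was at 61327, 72431, 82023 and 61545 CPM in FPLC exomere A to D, against 210514, 239377 and 146159.9 CPM in 3D UC exomere A to C. All FPLC libraries were below all UC libraries. RNY1 fell (log2 fold change -2.75 ± 0.68 (SE), edgeR adjusted p = 0.00397). RNY4 was at 21925, 25417, 30752 and 26656 CPM in FPLC exomere A to D, against 125540.2, 141264 and 112716 CPM in 3D UC exomere A to C. It did not overlap either and fell further (log2 fold change -3.49 ± 0.72 (SE), edgeR adjusted p = 0.000201). RNY3 moved the other way, at 80.6, 123, 63.6 and 73.1 CPM in FPLC exomere A to D, against 4.41, 7.08 and 2.62 CPM in 3D UC exomere A to C. Every FPLC library was above every UC library, at a level far under that of RNY1 and RNY4, and RNY3 rose (log2 fold change 2.77 ± 0.92 (SE), edgeR adjusted p = 0.0355). The RNY1 and RNY4 calls held in each fit without 1 library and with library totals (-1.52, adjusted p = 0.043 and -2.27, adjusted p = 0.00416). RNY3 no longer passed without 3D UC A, 3D UC B, 3D UC C or FPLC C (log2 2.38 to 3.52, adjusted p = 0.0517 to 0.165), and its rise as a share of Y RNA held in all 7 such fits (log2 change of share 6.05 ± 0.85 (SE), edgeR adjusted p = 9.1e-09).

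Within the class the balance of the 2 main genes differed as well. RNY1 made up 33.3, 34.2, 33.6 and 30.6% in FPLC exomere A to D, against 27.9, 28.5 and 22.002% in 3D UC exomere A to C of all Y RNA counts. RNY4 made up 11.9, 12.01, 12.6 and 13.3% in FPLC exomere A to D, against 16.6, 16.8 and 16.97% in 3D UC exomere A to C. The groups did not overlap in either, with RNY1 higher and RNY4 lower in FPLC exomere, but neither share passed the exact test over the 73 subgroups (adjusted p = 0.104, the smallest of any subgroup), and edgeR's test of the share had adjusted p = 0.648 for RNY1 and 0.52 for RNY4. Named pseudogenes held 35.7% ± 2.56 in FPLC exomere and 36.98% ± 0.604 in 3D UC exomere (SD, n = 4 and 3) of Y RNA. Unnamed copies held 18.8% ± 1.94 in FPLC exomere and 20.1% ± 2.87 in 3D UC exomere (SD, n = 4 and 3).

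The table lists 733 Y RNA entries, most of them genomic copies. Similar copies can share reads, and how the authors' counting assigned such reads is not given, so single copies are uncertain. RNY4P10 (chr6:33199601-33199696) and an unnamed copy, ENSG00000201778 (chr3:157153548-157153640), had levels close to those of RNY4 in all 7 libraries, at log2 fold changes of -3.52 and -3.53. The 54 entries that carry a gene's name, the gene itself or a pseudogene named after it, were therefore grouped by that name and the 679 unnamed copies kept apart, a grouping chosen after the values were seen. Of the 277 entries tested, 82 (29.6%) rose and 43 (15.5%) fell, against 6.23% and 3.17% of all features. Of the 20 tested entries named after RNY4, 1 rose and 13 fell, at a median log2 fold change of -3.20. Of the 4 named after RNY3, 3 (RNY3, RNY3P2 and RNY3P8) rose and 0 fell, at a median of 3.73. Of the 8 named after RNY1, 2 (RNY1P7 and RNY1P13) rose and 1, RNY1 itself, fell, at a median of 2.13. The summed level of all entries named after RNY1, nearly all of it RNY1, was lower in every FPLC library. It was 61392, 72900, 82144 and 61680 CPM in FPLC exomere A to D, against 210530, 239389 and 146176 CPM in 3D UC exomere A to C. The 245 unnamed copies gave calls both ways, with 76 that rose, 29 that fell and a median of 2.26. The summed level of all unnamed copies was nonetheless lower in every FPLC library. It was 39380 ± 4114 CPM in FPLC exomere and 149511 ± 6961 CPM in 3D UC exomere (SD, n = 4 and 3). As a share of Y RNA, where the fall of the class is set aside, 138 of the 277 rose and 0 fell, against 5.09% and 4.59% of all features. Of the 138 entries 128 were unnamed copies, and among the entries named after RNY4 2 rose and 0 fell.

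By level, the entries named after RNY3 summed to 86.3, 196, 74.8 and 87.7 CPM in FPLC exomere A to D, against 5.68, 7.62 and 2.99 CPM in 3D UC exomere A to C. They held 0.0469, 0.0928, 0.0306 and 0.0436% in FPLC exomere A to D, against 0.000752, 0.000909 and 0.000450% in 3D UC exomere A to C of Y RNA counts, higher in every FPLC library. The entries named after RNY4 held 46.3, 44.7, 49.3 and 51.96% in FPLC exomere A to D, against 53.4, 53.4 and 54.6% in 3D UC exomere A to C, lower in every FPLC library. With library totals 7 of the entries named after RNY4 passed lower and 1 higher, and of the unnamed copies 6 lower and 100 higher. RNY4P18 was the RNY4 pseudogene that rose, at 126, 96.5, 33.2 and 58.9 CPM in FPLC exomere A to D, against 0.207, 0.169 and 0.179 CPM in 3D UC exomere A to C. For RNY4P18 the log2 fold change was 7.21 ± 1.28 (SE, edgeR adjusted p = 1.04e-05). ENSG00000200615 (chr11:33004250-33004345), an unnamed copy, was at 667, 413, 156 and 325 CPM in FPLC exomere A to D, against 2.10, 0.769 and 0.681 CPM in 3D UC exomere A to C. For ENSG00000200615 the log2 fold change was 7.16 ± 1.13 (SE, edgeR adjusted p = 3.02e-07). Both differ from RNY4 by 12 edits (base changes, insertions or deletions) and held no more than 2.10 CPM in any UC library. The unnamed copy ENSG00000201778, which fell, also differs from RNY4 by 12 edits, so the number of edits did not separate the directions. RNY4P17, 8 edits from RNY4, fell, at 60.6, 24.5, 32.8 and 41.4 CPM in FPLC exomere A to D, against 267, 275 and 353 CPM in 3D UC exomere A to C. For RNY4P17 the log2 fold change was -4.09 ± 0.92 (SE, edgeR adjusted p = 0.000857).

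**Figure D2:**
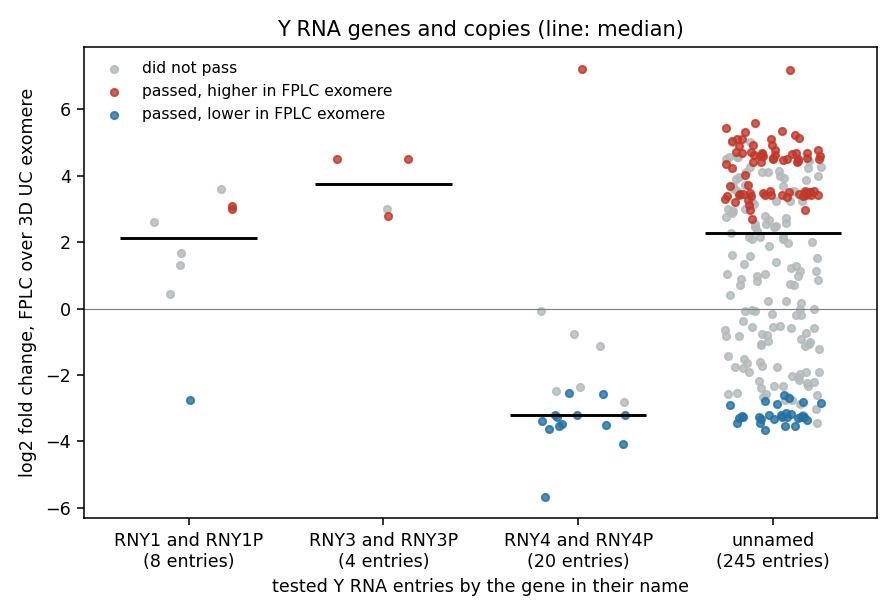
Log2 fold change of each tested Y RNA entry, FPLC over 3D UC exomere (y axis), by the Y RNA gene in its name, with unnamed copies apart (x axis), a line at the median, and colours for entries that passed higher, passed lower or did not pass. The medians are 2.13 for RNY1, 3.73 for RNY3, -3.20 for RNY4 and 2.26 for unnamed copies, and of the entries named after RNY4 all but RNY4P18 that passed were lower. Each entry counts alike in a median, and RNY1 itself fell (-2.75). The summed levels of the entries named after RNY1 and of the unnamed copies were lower in every FPLC library.

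rRNA was mostly 28S, the RNA of the large ribosomal subunit. 28S was at 184998, 135168, 406422 and 268511 CPM in FPLC exomere A to D, against 11622, 11736 and 19427 CPM in 3D UC exomere A to C. The groups lay far apart and 28S rose (log2 fold change 3.10 ± 0.72 (SE), edgeR adjusted p = 0.00153). It did not pass without FPLC B or FPLC D (log2 3.09 to 3.27, adjusted p = 0.0613 to 0.0685), nor with RLE scaling (log2 3.59, adjusted p = 0.0673). With library totals it passed (4.12, adjusted p = 1.3e-05). 18S, the RNA of the small subunit, was at 11399.9, 5412, 3479 and 2980.0 CPM in FPLC exomere A to D, against 2392, 2084 and 5774 CPM in 3D UC exomere A to C. It overlapped and did not pass (log2 fold change -0.29 ± 0.70 (SE), edgeR adjusted p = 0.89). Within rRNA, 28S held 89.7, 91.98, 97.9 and 96.6% in FPLC exomere A to D, against 76.8, 79.6 and 73.4% in 3D UC exomere A to C. 18S held 5.53, 3.68, 0.838 and 1.07% in FPLC exomere A to D, against 15.8, 14.1 and 21.8% in 3D UC exomere A to C. Neither overlapped, with 28S on the higher and 18S on the lower side in FPLC exomere (exact adjusted p = 0.104 for each; edgeR on the share of 18S, -2.63 on the log2 scale, adjusted p = 0.0848). 5.8S rRNA held 1.29% ± 0.734 in FPLC exomere and 3.83% ± 1.46 in 3D UC exomere (SD, n = 4 and 3). 5S rRNA held 1.2999% ± 1.03 in FPLC exomere and 1.81% ± 0.240 in 3D UC exomere (SD, n = 4 and 3). Both overlapped. The leading 5.8S entry, ENSG00000277739, had 2796 ± 529 CPM in FPLC exomere and 639 ± 109 CPM in 3D UC exomere (SD, n = 4 and 3). 5S had 2606 ± 1772 CPM in FPLC exomere and 323 ± 158 CPM in 3D UC exomere (SD, n = 4 and 3). Neither passed with TMM (adjusted p = 0.443 and 0.0905) though both did with library totals (2.13, adjusted p = 0.028 and 3.01, adjusted p = 0.00332). The mitochondrial 12S rRNA held 0.0201, 0.0128, 0.00197 and 0.0111% in FPLC exomere A to D, against 0.213, 0.251 and 0.0830% in 3D UC exomere A to C of the class. Of the 17 rRNA entries tested 3 rose and 0 fell: 28S, the mitochondrial 16S (log2 3.19, adjusted p = 0.0137) and a further 5.8S entry at 0 in all UC libraries. Of all features 6.23% rose and 3.17% fell. The effective number of features in rRNA, 1 over the sum of squared shares, was 1.24, 1.18, 1.04 and 1.07 in FPLC exomere A to D, against 1.62, 1.53 and 1.70 in 3D UC exomere A to C, so the class was narrower in every FPLC library.

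Miscellaneous RNA was mostly vault RNA, which made up 98.2% ± 1.56 in FPLC exomere and 90.04% ± 7.36 in 3D UC exomere (SD, n = 4 and 3) of it, with overlap. VTRNA1-1 (chr5:140711275-140711373, + strand), the most abundant, is shown because it is the largest single RNA of the class in all 7 libraries.
VTRNA1-1: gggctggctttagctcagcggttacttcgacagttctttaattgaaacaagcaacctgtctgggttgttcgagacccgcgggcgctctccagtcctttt
VTRNA1-1 was at 108166, 37228, 17374 and 50011 CPM in FPLC exomere A to D, against 1550.2, 2699 and 6535 CPM in 3D UC exomere A to C. No FPLC library was as low as a UC library, and VTRNA1-1 rose (log2 fold change 2.73 ± 0.84 (SE), edgeR adjusted p = 0.0248). VTRNA1-3 (2.70, adjusted p = 0.0308) and VTRNA3-1P, listed as a pseudogene (3.70, adjusted p = 0.00379), rose too. VTRNA1-2, at 16966 ± 14538 CPM in FPLC exomere and 1682 ± 1908 CPM in 3D UC exomere (SD, n = 4 and 3), did not pass (2.28, adjusted p = 0.247). The vault calls were lost in fits without 1 library. VTRNA1-1 did not pass without 3D UC A, 3D UC B, 3D UC C, FPLC A, FPLC B or FPLC D (log2 1.94 to 3.14, adjusted p = 0.0663 to 0.277). The same held for VTRNA1-3 without 3D UC A, 3D UC B, 3D UC C, FPLC A, FPLC B or FPLC D (log2 2.15 to 3.14, adjusted p = 0.0513 to 0.103). VTRNA3-1P was lost without FPLC A, FPLC B or FPLC D (log2 3.49 to 4.04, adjusted p = 0.0705 to 0.0877). DESeq2 gave VTRNA1-1 and VTRNA1-3 adjusted p = 0.0771 and 0.0614. Of the 6 vault entries tested 3 rose and 0 fell, against 6.23% and 3.17% of all features. Their median log2 fold change was 3.04 against 0.67 for all features. As shares of miscellaneous RNA 0 of the 6 passed.

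7SL RNA, the scaffold of the signal recognition particle, went against the class. Of miscellaneous RNA the 3 7SL genes held 0.300, 0.174, 0.146 and 0.0805% in FPLC exomere A to D, against 5.48, 2.78 and 0.783% in 3D UC exomere A to C. The 781 7SL pseudogenes held 0.0944, 0.389, 0.424 and 0.238% in FPLC exomere A to D, against 11.8, 6.50 and 1.83% in 3D UC exomere A to C. All FPLC libraries were below all UC libraries in both. As single features the 3 genes did not pass with TMM, and all 3 fell as a share of their class, among them RN7SL2, at 342, 36.1, 16.4 and 37.4 CPM in FPLC exomere A to D, against 45.3, 37.1 and 29.6 CPM in 3D UC exomere A to C (log2 change of share -3.26 ± 0.76 (SE), edgeR adjusted p = 0.00105). FPLC exomere A was high in RN7SL2 among the FPLC libraries. Copies of 7SK RNA held 1.22% ± 1.44 in FPLC exomere and 0.146% ± 0.0658 in 3D UC exomere (SD, n = 4 and 3). Among them RN7SKP187 was at 61.9, 167, 269 and 71.2 CPM in FPLC exomere A to D, against 0, 0 and 0 CPM in 3D UC exomere A to C. RN7SKP292 was at 37.6, 85.3, 141 and 37.9 CPM in FPLC exomere A to D, against 0, 0 and 0 CPM in 3D UC exomere A to C. With 3 counts over the UC total as the floor, they were at least 1531-fold and 809-fold higher in FPLC exomere, and both passed (edgeR adjusted p = 7.38e-10 and 2.24e-08).

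The share of snRNA in all counts overlapped between the groups. Outside Y RNA it did not, at 11.8, 6.15, 9.19 and 10.7% in FPLC exomere A to D, against 33.9, 29.7 and 44.5% in 3D UC exomere A to C, with every FPLC library lower (exact permutation test, two-sided, p = 0.0286, adjusted p = 0.129). Mitochondrial tRNA was lower there in every FPLC library too (0.0923% ± 0.0345 in FPLC exomere and 0.321% ± 0.0976 in 3D UC exomere, SD, n = 4 and 3). The make-up of the class differed as well. U2, which pairs with the branch point of introns, held 8.16, 32.6, 14.8 and 21.7% in FPLC exomere A to D, against 80.6, 80.2 and 57.6% in 3D UC exomere A to C of snRNA. U1, which pairs with the 5′ splice site, held 15.1, 35.1, 26.9 and 18.3% in FPLC exomere A to D, against 4.69, 2.92 and 2.26% in 3D UC exomere A to C. U6, the catalytic RNA, held 2.40, 2.72, 2.03 and 3.06% in FPLC exomere A to D, against 0.11998, 0.155 and 0.148% in 3D UC exomere A to C. None of the 3 overlapped, with U2 lower and U1 and U6 higher in FPLC exomere (exact adjusted p = 0.104 each). The main U2 gene, RNU2-1, was at 4782, 7506, 4586 and 8021 CPM in FPLC exomere A to D, against 30286, 17466 and 38765 CPM in 3D UC exomere A to C. It was lower in 4 of 4 FPLC libraries and fell (log2 fold change -3.43 ± 0.74 (SE), edgeR adjusted p = 0.000398), also with library totals (-2.21, adjusted p = 0.0108), in every fit without 1 library and as a share of snRNA (-1.85, adjusted p = 0.00443). Of the 45 U2 entries tested 21 fell and 1, RNU2-23P (log2 4.71, adjusted p = 0.00418), rose, at a median log2 fold change of -2.51. Of all features 3.17% fell and 6.23% rose. Entries such as U2 ENSG00000278774 (-3.43, adjusted p = 0.00138) may share reads with RNU2-1. RNU2-27P, 1 of the largest falls (log2 fold change -5.23 ± 1.07 (SE), edgeR adjusted p = 0.000232), was at 0.0266, 0.848, 3.80 and 6.46 CPM in FPLC exomere A to D, against 7.72, 7.70 and 149.8 CPM in 3D UC exomere A to C, and did not pass without 3D UC C, FPLC A or FPLC B (log2 -5.18 to -2.92, adjusted p = 0.0593 to 0.0783).

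Of the 63 U1 entries 9 (14.3%) rose and 0 fell (median 0.19), and of the 96 U6 entries 24 (25.0%) rose and 0 fell (median 1.81). Of all features 6.23% rose and 3.17% fell, at a median of 0.67, which is above that of U1. With library totals 18 U1 and 27 U6 entries rose, as many as by share of snRNA, and 0 fell. Beside these, 15.5% of all features rose with library totals and 5.09% by share. RNU1-1 was at 4452, 4171, 4248 and 4026 CPM in FPLC exomere A to D, against 717, 266 and 641 CPM in 3D UC exomere A to C. The FPLC libraries were alike and above all UC libraries, yet its log2 fold change did not pass with TMM (1.86, adjusted p = 0.101) and did with library totals (2.96, adjusted p = 0.0047). Its share of snRNA rose (log2 change of share 3.29 ± 0.65 (SE), edgeR adjusted p = 5.68e-05). RNU1-17P, a U1 pseudogene, was at 9.16, 169, 461 and 17.6 CPM in FPLC exomere A to D, against 2.28, 1.02 and 2.41 CPM in 3D UC exomere A to C. For RNU1-17P the log2 fold change was 5.67 ± 1.17 (SE, edgeR adjusted p = 0.000201). FPLC exomere C was far above A and D. U5 held 1.79% ± 0.936 in FPLC exomere and 0.458% ± 0.105 in 3D UC exomere (SD, n = 4 and 3) of snRNA, without overlap. U11 and U12, which belong to the minor spliceosome, held 70.8, 18.2, 48.8 and 53.3% in FPLC exomere A to D, against 12.1, 14.01 and 38.9% in 3D UC exomere A to C, with overlap. RNU11 was at 67436, 4072, 8962 and 11115 CPM in FPLC exomere A to D, against 4189, 1935 and 54239.8 CPM in 3D UC exomere A to C. FPLC exomere A and 3D UC exomere C were both high and the other 5 libraries low. RNU12 was at 479, 4662, 24725 and 34426 CPM in FPLC exomere A to D, against 5837, 4749.5 and 3835 CPM in 3D UC exomere A to C, high in FPLC exomere C and D and low in A. Neither passed (adjusted p = 0.88 and 0.879). U4atac and U6atac belong to the minor spliceosome too. Of their 10 tested entries 5 fell and 0 rose, against 3.17% of all features that fell. With library totals, and as a share of snRNA, 5 fell and 1 rose. Their summed share of snRNA overlapped, at 0.0276% ± 0.00940 in FPLC exomere and 0.0281% ± 0.0190 in 3D UC exomere (SD, n = 4 and 3).

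By level snoRNA rose widely. Of 265 snoRNA entries tested 85 (32.1%) rose and 1, SNORD35A (log2 -3.39, adjusted p = 0.0429), fell (adjusted p = 0.157 with library totals). Of all features 6.23% rose and 3.17% fell. The median log2 fold change was 2.87 against 0.67 for all features. With library totals 116 rose and 0 fell, against 15.5% and 1.23% of all features. As a share of snoRNA the calls went both ways, with 20 that rose and 23 that fell (9 and 15 in C/D box RNAs other than U3, 5 and 5 in H/ACA box RNAs, 6 and 1 in U3). Entries of the C/D box kind, which guide ribose methylation, gave 49 of 144 that rose and 1 that fell, and those of the H/ACA box kind, which guide pseudouridylation, 26 of 88 and 0. U3, a C/D RNA that takes part in the cleavage of pre-ribosomal RNA, gave 7 of 12 and 0, at a median of 5.18. U3 made up 46.2, 60.7, 71.6 and 83.6% in FPLC exomere A to D, against 7.92, 16.1 and 15.7% in 3D UC exomere A to C of snoRNA. Every FPLC library was above every UC library. Other C/D box RNAs held 38.8, 29.6, 20.5 and 11.3% in FPLC exomere A to D, against 73.03, 64.3 and 64.7% in 3D UC exomere A to C and lay the other way round, also without overlap (exact adjusted p = 0.104 for both). H/ACA RNAs held 7.20% ± 4.77 in FPLC exomere and 9.67% ± 1.53 in 3D UC exomere (SD, n = 4 and 3). Unnamed entries held 2.15% ± 1.56 in FPLC exomere and 9.68% ± 1.26 in 3D UC exomere (SD, n = 4 and 3). The effective number of features in snoRNA was 20.1, 13.8, 10.5 and 8.37 in FPLC exomere A to D, against 2.88, 5.02 and 4.83 in 3D UC exomere A to C, higher in every FPLC library, although U3, whose copies may share reads, is split there over several entries of near-equal count.

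The U3 gene SNORD3A was at 727, 2527, 3304 and 7457 CPM in FPLC exomere A to D, against 26.7, 29.2 and 42.2 CPM in 3D UC exomere A to C. The lowest FPLC library was far above the highest UC library, and SNORD3A rose (log2 fold change 5.41 ± 1.00 (SE), edgeR adjusted p = 2.19e-05). SNORD3D ENSG00000281000 was at 639.5, 2452, 3227 and 7361 CPM in FPLC exomere A to D, against 10.2, 10.8 and 17.4 CPM in 3D UC exomere A to C. For SNORD3D ENSG00000281000 the log2 fold change was 6.73 ± 1.07 (SE, edgeR adjusted p = 3.18e-07). SNORD68 was at 59.5, 593, 238 and 151 CPM in FPLC exomere A to D, against 2.07, 0.978 and 0 CPM in 3D UC exomere A to C. For SNORD68 the log2 fold change was 6.72 ± 1.24 (SE, edgeR adjusted p = 2.13e-05). SNORA75B was at 7.70, 79.3, 94.1 and 146 CPM in FPLC exomere A to D, against 0.296, 0.345 and 0 CPM in 3D UC exomere A to C. For SNORA75B the log2 fold change was 7.17 ± 1.31 (SE, edgeR adjusted p = 1.89e-05). SNORD24 (log2 6.37, adjusted p = 3.61e-05) and SNORA5A (6.20, adjusted p = 0.000211) rose too, with no more than 1.45 CPM in any UC library. All 6 calls held in each fit without 1 library. As a share of snoRNA the rise of SNORD3D ENSG00000281000 held in all 7 fits (3.34), and SNORA5A did not pass (adjusted p = 0.0876). The share of SNORD3A did not pass without 3D UC A or 3D UC B (log2 1.78 to 2.23, adjusted p = 0.0543 to 0.114). That of SNORD68 did not without 3D UC C or FPLC B (log2 3.03 to 3.18, adjusted p = 0.0511 to 0.0634). That of SNORD24 did not without 3D UC A, 3D UC B or FPLC B (log2 2.22 to 3.16, adjusted p = 0.0679 to 0.159). That of SNORA75B did not without 3D UC C (log2 3.13, adjusted p = 0.0977). SNORD33, the leading snoRNA of 3D UC exomere, was at 749.7, 2202, 2459.6 and 2589.6 CPM in FPLC exomere A to D, against 979, 373 and 579.7 CPM in 3D UC exomere A to C. Its level overlapped and did not pass (0.46, adjusted p = 0.78), while its share of snoRNA fell, at a mean of 7.91% ± 2.02 in FPLC exomere and 48.3% ± 8.31 in 3D UC exomere (SD, n = 4 and 3) (log2 change of share -2.61 ± 0.55 (SE), edgeR adjusted p = 0.000196).

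**Figure D3:**
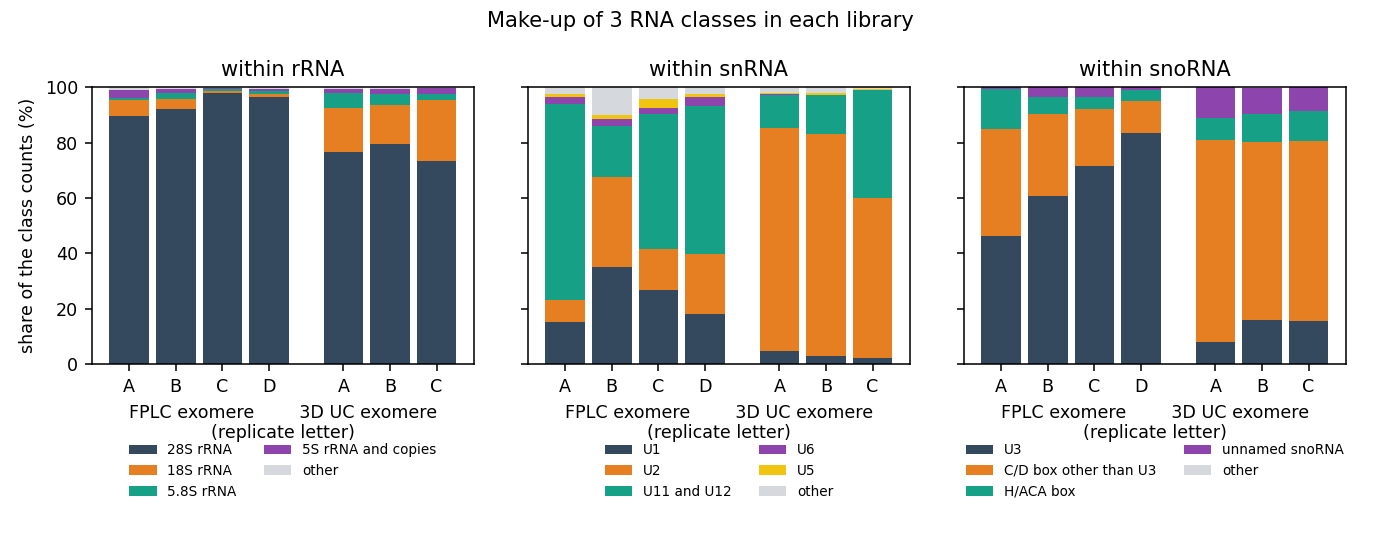
Make-up of rRNA, snRNA and snoRNA in each library (y axis, percent of the class counts; x axis, replicate letter, FPLC exomere left of 3D UC exomere), with stacked bars for the named groups. 28S holds 94.1% of rRNA in FPLC exomere against 76.6% in 3D UC exomere, U2 19.3% against 72.8% of snRNA, and U3 65.5% against 13.3% of snoRNA, on average.

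The miRNAs that the results turn on are shown with their seed, bases 2 to 8, in capitals, since the seed chooses the targets and members of a family share it. The mature sequences and positions are those of RefSeq (GRCh38.p14), and 1388 of the 1559 miRNAs in the table matched it by name, each with the deposited sequence. The first set was higher in FPLC exomere.
hsa-miR-21-5p, chr17:59841273-59841294, + strand: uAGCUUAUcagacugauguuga
hsa-miR-194-5p, copies on chromosomes 1 and 11: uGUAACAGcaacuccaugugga
hsa-miR-192-5p, chr11:64891203-64891223, - strand: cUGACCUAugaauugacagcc
hsa-miR-200b-3p, chr1:1167160-1167181, + strand: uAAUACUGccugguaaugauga
hsa-miR-200c-3p, chr12:6963742-6963764, + strand: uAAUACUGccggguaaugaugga
hsa-miR-429, chr1:1169055-1169076, + strand: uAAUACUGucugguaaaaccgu
hsa-miR-200a-3p, chr1:1167916-1167937, + strand: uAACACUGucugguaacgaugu
hsa-miR-30c-5p, copies on chromosomes 1 and 6: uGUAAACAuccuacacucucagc
hsa-miR-125a-5p, chr19:51693268-51693291, + strand: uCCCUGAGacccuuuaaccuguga
hsa-miR-125b-5p, copies on chromosomes 11 and 21: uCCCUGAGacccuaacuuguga

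The next set was lower in FPLC exomere, by level or as a share of miRNA.
hsa-miR-423-3p, chr17:30117131-30117153, + strand: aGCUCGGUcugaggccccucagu
hsa-miR-484, chr16:15643301-15643322, + strand: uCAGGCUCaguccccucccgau
hsa-miR-193a-5p, chr17:31560016-31560037, + strand: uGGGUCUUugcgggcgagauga
hsa-miR-92a-3p, copies on chromosomes 13 and X: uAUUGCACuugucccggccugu
hsa-miR-92b-3p, chr1:155195237-155195258, + strand: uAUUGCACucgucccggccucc
hsa-miR-320b, chromosome 1: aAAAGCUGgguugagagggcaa
hsa-miR-320c, chromosome 18: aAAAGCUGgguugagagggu

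Of 505 miRNAs tested 66 (13.1%) rose and 26 (5.15%) fell, at a median log2 fold change of 0.73, close to the 0.67 of all features. With library totals 159 rose and 7 fell, and with miRNA fitted alone, a fit added after seeing the data, 87 rose and 104 fell, so which direction held more calls depended on the scaling. Within miRNA, 80 rose and 32 fell as a share. The median GC content was 40.9% in the 80, 51.3% in the 32 and 50.0% in the 505, given as a description. miR-21-5p, an abundant miRNA of many tumours, was at 9238, 65574, 16155 and 14902 CPM in FPLC exomere A to D, against 2577, 1618 and 642 CPM in 3D UC exomere A to C. The groups did not overlap, FPLC exomere B stood above the rest, and miR-21-5p rose (log2 fold change 2.63 ± 0.76 (SE), edgeR adjusted p = 0.0147). It did not pass without 3D UC B, 3D UC C or FPLC B (log2 1.95 to 2.81, adjusted p = 0.0517 to 0.116), whereas its share of miRNA, at a mean of 9.26% ± 3.14 in FPLC exomere and 1.63% ± 0.731 in 3D UC exomere (SD, n = 4 and 3), rose in every such fit (log2 change of share 2.50 ± 0.46 (SE), edgeR adjusted p = 1.07e-05).

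Of the 6 intestinal entries tested 2, miR-194-5p and miR-192-5p, rose and 0 fell, both by level and by share. With library totals 6 rose. Beside these, 13.1% of all 505 miRNAs tested rose by level, and 159 rose with library totals. miR-215-5p, which has the seed UGACCUA of miR-192-5p, did not pass by level or by share. The 2 that rose moved alike. miR-194-5p was at 3901, 30088, 7607 and 7187 CPM in FPLC exomere A to D, against 950.4, 619 and 369 CPM in 3D UC exomere A to C. For miR-194-5p the log2 fold change was 2.85 ± 0.80 (SE, edgeR adjusted p = 0.0125). miR-192-5p was at 2966, 25109, 5501 and 5267 CPM in FPLC exomere A to D, against 867, 562 and 404 CPM in 3D UC exomere A to C. For miR-192-5p the log2 fold change was 2.60 ± 0.79 (SE, edgeR adjusted p = 0.0207). Both rose without overlap. By level miR-194-5p did not pass without 3D UC C or FPLC B (log2 2.16 to 2.48, adjusted p = 0.053 to 0.0869). For miR-192-5p this was so without 3D UC B, 3D UC C or FPLC B (log2 1.80 to 2.73, adjusted p = 0.0636 to 0.117). The share of both rose in every fit (2.67 and 2.37 on the log2 scale). All 6 intestinal entries together held 6.48, 11.8, 6.86 and 5.45% in FPLC exomere A to D, against 1.47, 1.56 and 0.976% in 3D UC exomere A to C of miRNA.

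The miR-200 family, which keeps epithelial cells epithelial by lowering ZEB1 and ZEB2, gave 6 of 9 that rose and 0 that fell, at a median log2 fold change of 2.76, and 9 of 9 with library totals. Beside these, 13.1% of all 505 miRNAs tested and 6.23% of all features rose. With library totals 159 of the 505 miRNAs and 15.5% of all features rose. It held 8.20, 12.4, 7.29 and 6.74% in FPLC exomere A to D, against 1.76, 1.54 and 1.04% in 3D UC exomere A to C of miRNA, with every FPLC library above every UC library. miR-200b-3p was at 4494, 29117, 6860.4 and 7975 CPM in FPLC exomere A to D, against 996, 579.8 and 418 CPM in 3D UC exomere A to C. For miR-200b-3p the log2 fold change was 2.81 ± 0.79 (SE, edgeR adjusted p = 0.013). miR-200c-3p was at 2287, 10899, 2507 and 3621 CPM in FPLC exomere A to D, against 357, 232 and 242 CPM in 3D UC exomere A to C. For miR-200c-3p the log2 fold change was 2.76 ± 0.81 (SE, edgeR adjusted p = 0.0165). These share the seed AAUACUG with miR-429 (3.16, adjusted p = 0.00906), and all 3 miRNAs of that seed rose. Of the 2 miRNAs tested with the other seed of the family, AACACUG, 1 rose, miR-200a-3p (2.73, adjusted p = 0.0183). The other, miR-141-3p, did not pass by level or by share. By level, miR-200b-3p did not pass without 3D UC B or 3D UC C (log2 2.46 to 2.88, adjusted p = 0.0535 to 0.0876). miR-200c-3p did not without 3D UC B or 3D UC C (log2 2.54 to 2.83, adjusted p = 0.0613 to 0.0885). miR-200a-3p did not without 3D UC B, 3D UC C or FPLC B (log2 1.98 to 2.70, adjusted p = 0.0726 to 0.14). miR-429 did not without 3D UC C (log2 2.73, adjusted p = 0.0768). The share of all 4 rose in each of the 7 fits without 1 library.

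miR-30c-5p had 1 of the largest changes of share, at 373, 3339.6, 779 and 1005 CPM in FPLC exomere A to D, against 31.4, 19.4 and 30.7 CPM in 3D UC exomere A to C. It rose by level (log2 fold change 4.34 ± 0.94 (SE), edgeR adjusted p = 0.000469) and by share (4.01, adjusted p = 5.19e-06), in every fit without 1 library. Of the 5 miRNAs with its seed, GUAAACA, 2 rose by level and 4 by share. miR-125b-5p was at 64.8, 442, 123 and 179.9 CPM in FPLC exomere A to D, against 5.62, 6.32 and 11.2 CPM in 3D UC exomere A to C. For miR-125b-5p the log2 fold change was 3.41 ± 0.97 (SE, edgeR adjusted p = 0.0134). miR-125a-5p was at 67.98, 232, 67.4 and 80.1 CPM in FPLC exomere A to D, against 5.92, 4.497 and 1.62 CPM in 3D UC exomere A to C. For miR-125a-5p the log2 fold change was 3.40 ± 1.00 (SE, edgeR adjusted p = 0.0162). Both miRNAs of the seed CCCUGAG rose, with at most 11.2 CPM in any UC library. miR-125b-5p did not pass without 3D UC A, 3D UC B or FPLC B (log2 2.79 to 3.49, adjusted p = 0.0507 to 0.0556). miR-125a-5p did not pass without 3D UC B, 3D UC C, FPLC A or FPLC B (log2 2.95 to 3.72, adjusted p = 0.0523 to 0.0998). In the let-7 family 4 of 17 rose and 0 fell, at a median of 1.86, and with library totals 11 rose. Of all 505 miRNAs tested 66 rose and 26 fell, and 159 rose with library totals. let-7a-5p was at 1183, 10363, 2079 and 4134 CPM in FPLC exomere A to D, against 769.6, 351 and 285 CPM in 3D UC exomere A to C, and passed by share (log2 change of share 1.70 ± 0.52 (SE), edgeR adjusted p = 0.0198) but not by level (1.82, adjusted p = 0.0952). That share did not pass without 3D UC B, 3D UC C or FPLC B (log2 1.49 to 1.68, adjusted p = 0.0598 to 0.106).

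Other miRNAs were lower. miR-423-3p was at 1175, 1493, 620.4 and 506 CPM in FPLC exomere A to D, against 4255, 4035 and 3206 CPM in 3D UC exomere A to C. All FPLC libraries were below all UC libraries, and miR-423-3p fell (log2 fold change -3.29 ± 0.79 (SE), edgeR adjusted p = 0.00239). miR-484 was at 219.9, 1429, 382 and 284 CPM in FPLC exomere A to D, against 3442, 2889.6 and 1989 CPM in 3D UC exomere A to C and fell without overlap (log2 fold change -3.62 ± 0.80 (SE), edgeR adjusted p = 0.000619). Both held with library totals (-2.01, adjusted p = 0.0268 and -2.26, adjusted p = 0.014) and in every fit without 1 library, and both fell as a share of miRNA. miR-423-3p made up 0.485% ± 0.407 in FPLC exomere and 4.16% ± 0.943 in 3D UC exomere (SD, n = 4 and 3) of miRNA. miR-484 made up 0.206% ± 0.0726 in FPLC exomere and 2.96% ± 0.674 in 3D UC exomere (SD, n = 4 and 3). miR-193a-5p was at 23.6, 53.3, 20.6 and 30.4 CPM in FPLC exomere A to D, against 129, 80.7 and 83.9 CPM in 3D UC exomere A to C. For miR-193a-5p the log2 fold change was -2.93 ± 0.86 (SE, edgeR adjusted p = 0.0167). With library totals it did not pass (-1.61, adjusted p = 0.102).

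miR-92a-3p, the leading miRNA of 3D UC exomere, was at 28465, 44960.5, 14656 and 13529.5 CPM in FPLC exomere A to D, against 41649, 27679 and 29505 CPM in 3D UC exomere A to C. The levels overlapped and did not pass (-1.64, adjusted p = 0.0972). Its share of miRNA was 26.4, 9.42, 7.53 and 5.82% in FPLC exomere A to D, against 32.8, 35.6 and 36.3% in 3D UC exomere A to C. The share did not overlap and fell (log2 change of share -1.50 ± 0.47 (SE), edgeR adjusted p = 0.0231), though it did not pass without 3D UC B, 3D UC C, FPLC B, FPLC C or FPLC D (log2 -1.49 to -1.27, adjusted p = 0.0534 to 0.0788). miR-92b-3p, of the same seed, AUUGCAC, fell (log2 fold change -2.54 ± 0.89 (SE), edgeR adjusted p = 0.0472), but did not pass without 3D UC A, 3D UC B, 3D UC C, FPLC B, FPLC C or FPLC D (log2 -2.69 to -2.39, adjusted p = 0.0556 to 0.0836) or with library totals (-1.36, adjusted p = 0.241). Of the 4 miRNAs tested with the seed AUUGCAC, 1 fell by level and 2 by share, and miR-25-3p and miR-32-5p did not pass in either. The miR-17-92 cluster and its paralogs split by member. Of 21 tested 5 rose and 1 fell, at a median of 1.64, beside 13.1% and 5.15% of all miRNAs tested. The list as a whole, carried by miR-92a-3p, held 27.7, 11.3, 8.74 and 6.70% in FPLC exomere A to D, against 34.3, 37.1 and 37.5% in 3D UC exomere A to C of miRNA. The miR-320 family and miR-484, RNAs made without Drosha, held 5.85, 3.06, 2.79 and 3.06% in FPLC exomere A to D, against 12.7, 12.6 and 17.4% in 3D UC exomere A to C. Of the 6 tested 1 fell by level and 6 of 6 fell by share, beside 26 and 32 of all 505 miRNAs. The median log2 change of share was -2.11 against 0.20 for all features. miR-320b (log2 change of share -2.05, adjusted p = 0.00116) and miR-320c (-2.10, adjusted p = 0.00144) are examples, both without overlap as shares.

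The remaining lists were as follows, beside 13.1% of all miRNAs tested that rose and 5.15% that fell, and 6.23% and 3.17% of all features. miR-10, miR-99, miR-100 and miR-125 gave 2 of 13 that rose and 1 that fell, at a median of 0.14, and held 3.32% ± 0.852 in FPLC exomere and 2.26% ± 0.242 in 3D UC exomere (SD, n = 4 and 3) of miRNA. miR-23, miR-24, miR-27, miR-29 and miR-30 gave 6 of 26 and 0 (median 1.78), with 7.33% ± 2.02 in FPLC exomere and 4.45% ± 1.40 in 3D UC exomere (SD, n = 4 and 3). The colorectal oncomiRs, a list led by miR-21-5p, gave 3 of 18 and 0 (median 2.06), with 11.97% ± 3.66 in FPLC exomere and 2.54% ± 0.840 in 3D UC exomere (SD, n = 4 and 3). Blood cell, endothelial and liver miRNAs gave 1 of 8 and 0, and mesenchymal and muscle miRNAs 0 of 2 and 0. In the first 4 of these lists 15.4, 23.1, 16.7 and 12.5% rose, in the order given. With library totals 4, 16, 10 and 5 of the first 4 of these lists rose, in the same order, and 0 fell. Beside these, 159 of all 505 miRNAs and 15.5% of all features rose with library totals.

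**Figure D4:**
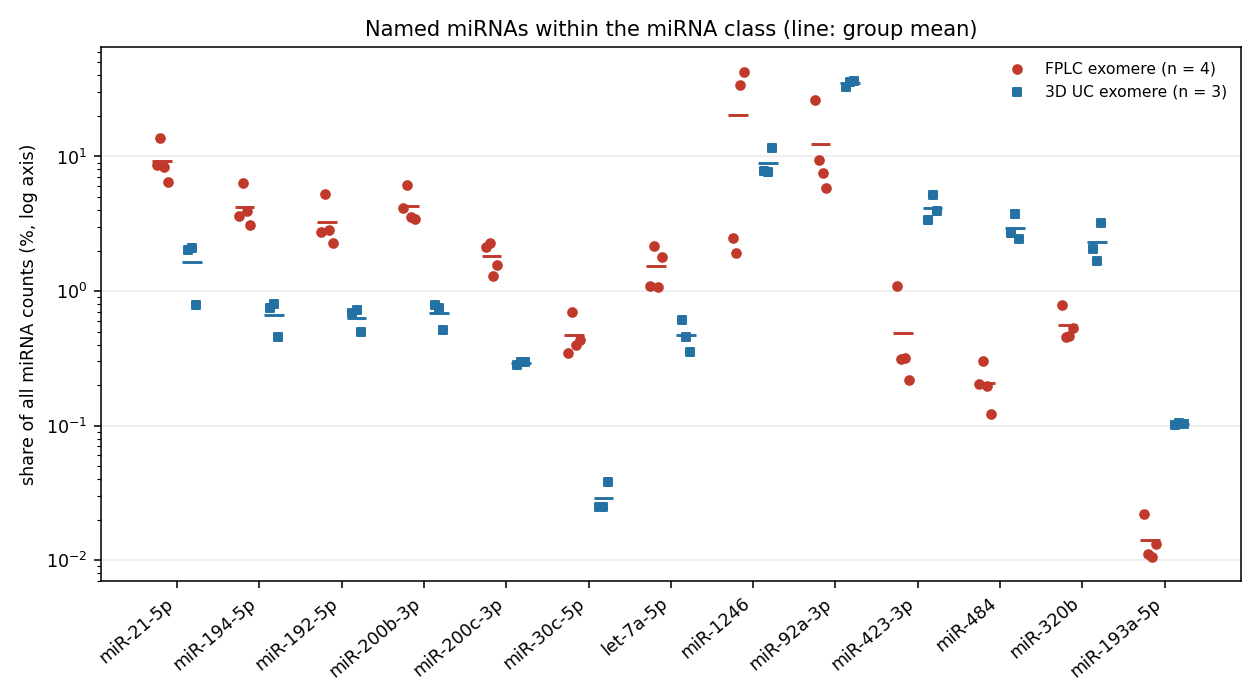
Share of all miRNA counts (y axis, percent, log axis) held by 13 named miRNAs in each library, FPLC exomere (circles, n = 4) left of 3D UC exomere (squares, n = 3), with a line at each group mean. The points do not overlap except for miR-1246, whose FPLC exomere libraries lie on both sides of 3D UC exomere.

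Some entries listed as miRNA can overlap other structured RNAs in sequence, which was examined here only for miR-1246 and miR-1290, against U2. A stretch of RNU2-1 (chr17:43233787-43233977, - strand), bases 74 to 132 of its 191, is shown with the 19 bases of miR-1246 in capitals, which match it in full, and miR-1290 matches bases 96 to 114 with 1 edit.
RNU2-1 stretch: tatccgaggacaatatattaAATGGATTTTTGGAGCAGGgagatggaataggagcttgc
hsa-miR-1246, chr2:176601024-176601042, - strand: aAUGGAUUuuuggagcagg
hsa-miR-1290, chr1:18897078-18897096, - strand: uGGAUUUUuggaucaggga
hsa-miR-4497, chr12:109833350-109833366, + strand: cUCCGGGAcggcugggc
miR-1246 was at 2653, 9146, 66049 and 99215 CPM in FPLC exomere A to D, against 9875, 5903 and 9459 CPM in 3D UC exomere A to C. FPLC exomere C and D were high, A was lowest of the 7, and it did not pass (1.20, adjusted p = 0.584). miR-1290 was at 0, 4.01, 3.44 and 12.9 CPM in FPLC exomere A to D, against 32.8, 21.5 and 83.9 CPM in 3D UC exomere A to C, below the UC range in every FPLC library, and fell (log2 fold change -4.49 ± 1.00 (SE), edgeR adjusted p = 0.000712). The U2 gene itself had FPLC levels of 4586 to 8021 CPM, and whether reads counted as miR-1246 or miR-1290 came from U2 was not tested. miR-4497 was at 37.4, 28.99, 40.2 and 66.3 CPM in FPLC exomere A to D, against 0, 0 and 0 CPM in 3D UC exomere A to C, at least 430.1-fold higher in FPLC exomere against a floor of 3 counts over the UC total (edgeR adjusted p = 1.73e-07). A list of 14 entries, grouped by name as overlapping other structured RNAs, held 2.50, 1.93, 33.98 and 42.7% in FPLC exomere A to D, against 7.80, 7.65 and 11.7% in 3D UC exomere A to C of miRNA. Nearly all of this was miR-1246, which alone held 2.46, 1.92, 33.95 and 42.7% in FPLC exomere A to D, against 7.77, 7.60 and 11.6% in 3D UC exomere A to C. Of the 9 list entries tested 2 rose and 1 fell, beside 13.1% and 5.15% of all miRNAs tested.

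In tRNA, 2 of 49 entries (4.08%) rose and 0 fell with TMM, under the 6.23% and 3.17% of all features. With library totals 12 rose, beside 15.5% of all features. As a share of tRNA 0 rose and 3 fell, beside 5.09% and 4.59% of all features. The 2 that rose with TMM were tRNA-Leu-TAA (log2 3.00, adjusted p = 0.0294) and tRNA-Ser-CGA (log2 3.28, adjusted p = 0.0236), both high in FPLC exomere A, at 1276 and 155 CPM, and within or near the UC range in the other 3 FPLC libraries. tRNA-Lys-TTT was at 60781, 364, 343 and 2094 CPM in FPLC exomere A to D, against 519, 483 and 31887 CPM in 3D UC exomere A to C. FPLC exomere A and 3D UC exomere C were high and the other 5 were low, the same libraries as for RNU11, and it did not pass (adjusted p = 1). tRNA-Asp-GTC was at 30679, 3366, 2364 and 7407 CPM in FPLC exomere A to D, against 791, 1212 and 5882 CPM in 3D UC exomere A to C (log2 1.06, adjusted p = 0.319). tRNA-Gly-GCC was at 10556, 4428, 3052 and 19341 CPM in FPLC exomere A to D, against 1824, 2478 and 1965 CPM in 3D UC exomere A to C (0.67, adjusted p = 0.584). As shares of tRNA, the groups did not overlap for 3 amino acids. Asp held 20.8% ± 4.57 in FPLC exomere and 10.98% ± 1.57 in 3D UC exomere (SD, n = 4 and 3). Glu held 8.29% ± 2.73 in FPLC exomere and 13.6% ± 0.949 in 3D UC exomere (SD, n = 4 and 3). His held 1.23% ± 0.489 in FPLC exomere and 4.73% ± 2.79 in 3D UC exomere (SD, n = 4 and 3). Gly and Lys overlapped. Gly held 36.7% ± 22.6 in FPLC exomere and 23.7% ± 16.8 in 3D UC exomere (SD, n = 4 and 3). Lys held 12.3% ± 12.9 in FPLC exomere and 25.3% ± 25.5 in 3D UC exomere (SD, n = 4 and 3). tRNA-His-GTG fell as a share (log2 change of share -1.94 ± 0.64 (SE), edgeR adjusted p = 0.0328), but did not pass without 3D UC A, 3D UC B, FPLC B, FPLC C or FPLC D (log2 -2.04 to -1.48, adjusted p = 0.0535 to 0.197). Mitochondrial tRNA was led by mt-tRNA-Glu in both groups, at a mean of 49.5% ± 10.1 in FPLC exomere and 49.4% ± 13.7 in 3D UC exomere (SD, n = 4 and 3) of its class (by level -1.38, adjusted p = 0.226). mt-tRNA-Ser2 was at 62.9, 109, 62.5 and 112 CPM in FPLC exomere A to D, against 133, 196 and 259 CPM in 3D UC exomere A to C and fell (log2 fold change -2.47 ± 0.84 (SE), edgeR adjusted p = 0.0424), but did not pass without 3D UC B, 3D UC C, FPLC A, FPLC B or FPLC C (log2 -2.55 to -2.22, adjusted p = 0.0576 to 0.117) or with library totals (-1.17, adjusted p = 0.294). Of 21 entries 3 fell and 0 rose, against 3.17% and 6.23% of all features. The others were mt-tRNA-Phe (log2 -4.22, adjusted p = 0.00820, and 0.0941 with library totals) and mt-tRNA-Leu2, at 0 CPM in all 4 FPLC libraries and at most 9.11 CPM in a UC library, and all 3 are among the 13 tested that the heavy strand encodes.

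By the mean of the 2 group levels, lncRNA was led by ENSG00000286171, ENSG00000259001, SNHG20 and GAS5, which overlap small RNA genes. In 3D UC exomere ENSG00000259001, SNHG20 and GAS5 had means of 34.0, 0 and 8.76 CPM. EPCAM-DT, which overlaps no small RNA gene, had a mean of 54.6 CPM there. The effective number of lncRNA features was 2.54, 26.0, 20.1 and 54.3 in FPLC exomere A to D. It was 301, 328 and 7.01 in 3D UC exomere A to C. ENSG00000286171 (chr7:148941483-148941638) overlaps RNY5, the Y RNA gene that is not in the table by its own name, per RefSeq. It was at 18043, 3161, 1490.1 and 2843 CPM in FPLC exomere A to D, against 213, 169 and 1785 CPM in 3D UC exomere A to C. The groups overlapped through 3D UC exomere C, FPLC exomere A was far above the rest, and the entry rose (log2 fold change 2.24 ± 0.78 (SE), edgeR adjusted p = 0.048), but did not pass without 3D UC A, 3D UC B, FPLC A, FPLC B or FPLC D (log2 0.69 to 2.59, adjusted p = 0.127 to 0.636). ENSG00000259001 (chr14:20343048-20343685) overlaps RPPH1, the RNA of ribonuclease P, which trims the 5′ end of tRNAs. It was at 16439, 2432, 1939 and 1899 CPM in FPLC exomere A to D, against 43.5, 20.9 and 37.7 CPM in 3D UC exomere A to C. FPLC exomere A was again highest, all FPLC libraries were above all UC libraries, and the entry rose by level (log2 fold change 6.29 ± 1.03 (SE), edgeR adjusted p = 7.83e-07) and by share of lncRNA (4.69), in every fit without 1 library.

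SNHG20, a host gene whose span holds SCARNA16, was at 134, 255, 120.0 and 142 CPM in FPLC exomere A to D, against 0, 0 and 0 CPM in 3D UC exomere A to C, at least 1662-fold higher in FPLC exomere against the floor of 3 counts (edgeR adjusted p = 1.56e-09). GAS5, host of several C/D box snoRNAs, was at 159.6, 168, 107 and 169 CPM in FPLC exomere A to D, against 15.97, 5.54 and 4.77 CPM in 3D UC exomere A to C and rose (log2 fold change 2.84 ± 0.94 (SE), edgeR adjusted p = 0.0368), but did not pass without 3D UC B, 3D UC C or FPLC C (log2 2.46 to 2.78, adjusted p = 0.0512 to 0.161). Of the 18 host transcripts of snoRNAs tested 3 (GAS5, SNHG1 and SNHG20) rose and 0 fell, at a median of 1.52, and the 30 in the table held 1.20, 3.12, 2.94 and 1.83% in FPLC exomere A to D, against 0.701, 0.494 and 0.578% in 3D UC exomere A to C of lncRNA. In all, 130 of 4756 lncRNA entries (2.73%) rose and 110 (2.31%) fell, shares under the 6.23% and 3.17% of all features. This balance depended on the scaling, since 549 rose and 41 fell with library totals, and 48 rose and 208 fell as a share of lncRNA. EPCAM-DT, at 70.9 ± 21.3 CPM in FPLC exomere and 54.6 ± 17.97 CPM in 3D UC exomere (SD, n = 4 and 3), fell only as a share (log2 change of share -1.78 ± 0.62 (SE), edgeR adjusted p = 0.0476), and did not pass without 3D UC A, 3D UC B, FPLC A, FPLC B or FPLC D (log2 -1.91 to -1.36, adjusted p = 0.0572 to 0.228). Of 743 ERV entries 23 (3.10%) rose and 5 (0.673%) fell, with 78 and 0 under library totals and 14 and 7 as a share of ERV. The leading ones, MSTA (195 ± 137 CPM in FPLC exomere and 57.6 ± 35.2 CPM in 3D UC exomere (SD, n = 4 and 3)) and THE1B (163 ± 88.2 CPM in FPLC exomere and 45.7 ± 17.2 CPM in 3D UC exomere (SD, n = 4 and 3)), did not pass (adjusted p = 0.971 and 0.892).

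FPLC and 3D UC were also compared in supermeres, smaller particles of the same medium, which share no library with the exomere groups. The difference between the exomere and the supermere effect passed for 138 features (1.97%), 79 (1.13%) higher and 59 (0.842%) lower in exomere. It rests on a 3D UC supermere group in which 1 of 3 libraries has 46 counts, and on the scaling, since library totals gave 469 higher and 3 lower. Of the 16 named features that passed, 10 still did without that library and 5 with library totals. Those 5 were ENSG00000259001 (5.50 ± 1.21 (SE), adjusted p = 0.00278), ENSG00000286171 (5.11 ± 1.12 (SE), adjusted p = 0.00257), SNHG20 (12.80 ± 1.99 (SE), adjusted p = 9.78e-07), SNORD24 (5.93 ± 1.69 (SE), adjusted p = 0.0324) and miR-192-5p (3.57 ± 1.08 (SE), adjusted p = 0.0485), each higher in exomere. 28S rRNA changed by 3.10 in exomere and 9.08 in supermere on the log2 scale with TMM (difference -5.98 ± 0.99 (SE), adjusted p = 4.74e-06), and by a difference of -1.13 with library totals (adjusted p = 0.908).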

How the data were processed

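Small RNA of all 38 libraries was deposited as 1 table of 22549 features in 10 classes, in expected counts that the authors made from their reads, with 6.71% of values not whole (tolerance 1e-06). Per the submitters' processing notes, cutadapt 4.5, FastQC 0.12.1, Bowtie 1.3.1 and GRCh38.p13 were used, and the counting tool is not given in the sources used here. The name of the table holds 2 project numbers, which may mark batches, and no source ties a library to either, so batch and isolation method cannot be told apart.

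Counts were rounded and fitted with edgeR 4.0.16 in R 4.3.3 (robust quasi-likelihood fit, 11 group means over all 38 libraries, 27 residual degrees of freedom, TMM factors, filterByExpr with a minimum count of 10, 7009 features), with Benjamini-Hochberg adjustment at 0.05. The SE of a log2 fold change was its size over the square root of F. Shares within a class used the log class total as offset, over 37 libraries, without a 3D UC supermere library of 46 counts. Class and subgroup shares and effective numbers (on the natural log) had exact permutation tests, two-sided. A fold against a group at 0 used a floor of 3 counts over the group total. DESeq2 1.42.0 was an alternative. Edit distances used edlib 1.3.9.post1.

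Named features were, per class, the 4 of highest mean CPM, the 10 largest calls in each direction with at least 50 CPM and no overlap (1 per family), the 2 largest changes of share in each direction, up to 4 members of each of 11 miRNA lists, and a fixed set of 16. The members and lists were chosen with earlier results of these data known. RNY5 of the fixed set has no entry by name. The counts of Y RNA entries by name, and features named where a count is 5 or fewer, were chosen after their values were seen. 1 Y RNA gene sequence is not reported here.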

Additional observations from a re-analysis of the deposited data

Results flagged for a closer look

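In groups of 4, a library whose gap to the nearest other library passes Dixon's 95% critical value was marked, which chance does in about 1 in 20 groups. Groups of 3 were not examined, so this covers FPLC exomere only. FPLC exomere A stood high in the share of tRNA (20.6%), in RN7SL2 (342 CPM), RNU11 (67436 CPM), tRNA-Lys-TTT (60781 CPM), tRNA-His-GTG (3422 CPM), ENSG00000286171 (18043 CPM) and ENSG00000259001 (16439 CPM). FPLC exomere B stood high in miR-21-5p (65574 CPM), miR-194-5p (30088 CPM), miR-192-5p (25109 CPM), miR-200b-3p (29117 CPM), miR-200c-3p (10899 CPM), miR-429 (3875 CPM), miR-125a-5p (232 CPM), miR-484 (1429 CPM) and SNHG20 (255 CPM). FPLC exomere C stood low in GAS5 (107 CPM). FPLC exomere B also had the highest share of miRNA, 47.7% of its counts.

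The FPLC over 3D UC effect differed between exomere and supermere for 16 named features (edgeR interaction term, adjusted over 7009 features). The log2 difference, exomere minus supermere, was -3.63 for RNY4, -3.67 for RNY4P10, -3.67 for Y RNA ENSG00000201778, -5.98 for 28S rRNA, -4.17 for RNU2-1, -3.87 for U2 ENSG00000278774, -4.55 for miR-423-3p, -5.16 for miR-484, -4.31 for miR-92a-3p, -4.21 for miR-320b and -4.28 for miR-320c. It was 5.93 for SNORD24, 3.57 for miR-192-5p, 5.11 for ENSG00000286171, 5.50 for ENSG00000259001 and 12.80 for SNHG20. None of the 11 negative differences passed with library totals, and SNHG20 is at 0 in all 3D UC exomere libraries, so its fitted value depends on the prior count.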

How the results depend on the processing

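Of the 45 named features that passed by level, 26 did so in all 7 fits without 1 library, and of the 41 that passed by share 30 did. Against 437 higher and 222 lower, the counts were 1087 and 86 with library totals, 84 and 73 with no filter, 146 and 88 with the 2 groups alone, and 226 and 111 with DESeq2. For miRNA, against 66 and 26, a fit of miRNA alone, chosen after seeing the data, gave 87 and 104. Over all features a minimum count of 50 gave 191 higher, and RLE factors 70 lower. Leaving out 1 library gave 124 to 624 higher and 143 to 241 lower. By share, against 357 and 322, the 2 groups alone gave 178 and 52, and leaving out 1 library 237 to 441 and 206 to 379. The difference from supermere, 79 higher and 59 lower, became 469 and 3 with library totals, and 33 lower without the near-empty library. The cause of these shifts was not tested.

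Whether the letters pair the libraries is not known. Correlations of same-letter deviations were -0.10, 0.09 and -0.06. FPLC A correlated best with 3D UC C, B with B and C with A. With 3 libraries of a group per mean, these correlations cannot settle the question. With the letter as a replicate block, in the 2 groups alone, 39 features passed higher and 36 lower by level, and 144 and 25 by share, and RN7SL2 (-0.72), RNU12 (-1.75, share -0.031), miR-1246 (-0.84, share -0.81) and the share of mt-tRNA-Glu (-0.059) changed sign.

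Other log2 fold changes that changed sign did not pass. With library totals they were 18S rRNA (0.77), RNU11 (0.19), tRNA-Lys-TTT (0.54), tRNA-His-GTG (0.46), mt-tRNA-Glu (0.021) and EPCAM-DT (0.37). With RLE they were 18S rRNA (0.63), RNU11 (1.09), tRNA-Lys-TTT (1.78) and tRNA-His-GTG (0.185). With a minimum count of 50 they were 5.8S rRNA ENSG00000277739 (-0.072), RN7SL2 (-0.32), RNU12 (-0.42), SNORD33 (-0.53), tRNA-Gly-GCC (-0.041), MSTA (-0.55) and THE1B (-0.46), and with no filter RN7SL2 (-0.38). Of class shares, differences in percentage points were -9.30 for miRNA, -0.66 for tRNA and -0.10 for ERV outside Y RNA, and 0.83 for snRNA and 0.023 for mitochondrial tRNA outside rRNA. The mesenchymal and muscle list was 0.27 higher on the log2 scale.

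Leaving out 1 library turned the sign of some values that did not pass. Log2 fold changes ranged over -0.911 to 0.0243 for 18S rRNA, -1.76 to 0.963 for RN7SL2, -2.20 to 1.65 for RNU11, -0.371 to 0.886 for RNU12 and -0.0289 to 0.900 for SNORD33. They were -4.76 to 3.67 for tRNA-Lys-TTT, -0.506 to 2.01 for tRNA-Asp-GTC, -0.237 to 0.569 for MSTA and -0.0220 to 0.806 for THE1B. Log2 changes of share ranged over -0.381 to 0.255 for VTRNA1-2, -0.405 to 2.53 for RNU11, -2.49 to 0.802 for tRNA-Lys-TTT, -0.173 to 0.231 for mt-tRNA-Glu, -0.222 to 2.25 for ENSG00000286171 and -0.191 to 0.429 for MSTA. Differences in percentage points ranged over -4.14 to 0.940 for snRNA, -0.496 to 6.04 for tRNA, -0.0101 to 0.00836 for mitochondrial tRNA, -20.95 to 1.66 for tRNA-Lys within tRNA, -2.23 to 0.407 for unnamed Y RNA copies and -0.0339 to 0.0239 for mesenchymal and muscle miRNAs.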
